A study of Mus musculus with 2 samples.

Results

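The GABA rho subunit genes Gabrr1, Gabrr2 and Gabrr3, the glycine receptor subunit genes Glra1, Glra2, Glra3, Glra4 and Glrb, and the glycine transporter gene Slc6a9 were described in a mouse retina ATAC-seq series. These 9 genes were chosen by name from the RefSeq gene table of GRCm38, which held 21883 protein-coding genes on chromosomes 1 to 19, X and Y, and all 9 were found. ATAC-seq uses the Tn5 transposase to insert sequencing adapters into open DNA, so that counting insertions along a locus measures its accessibility. The knockout library came from adult C57BL/6 neural retina lacking Gabra3, and the wild-type library from neural retina of adult C57BL/6 littermates. Each library was made from 20000 nuclei of flash-frozen tissue. The labels give neither the Gabra3 allele, nor the sex, nor how many animals entered a library. With 1 library per genotype there is no replicate check and no test between genotypes. Every ratio compares these libraries, and its exact 95% interval (Clopper-Pearson) covers counting error only.

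The GABA rho subunits form GABA-gated chloride channels that close slowly, and in the retina they are best known from the axon terminals of bipolar cells, where amacrine cells inhibit transmission. Glycine receptors are chloride channels of alpha subunits, which bind glycine, with the beta subunit encoded by Glrb, which anchors the channel to gephyrin. Slc6a9 encodes GlyT1, the transporter that takes up glycine and marks glycinergic amacrine cells in the retina. Most nuclei of the mouse retina are those of rods, so in a bulk library a locus used by amacrine or bipolar cells contributes from a minority of nuclei. Fewer cells of a type and less accessibility per cell cannot be told apart.

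The promoter sequences show how unlike the members are at their starts. RefSeq (GRCm38.p6) gave 10 transcription starts for 8 of the 9 members, with 1 start each except for 3 at Slc6a9. The 250 bases before the start are printed 5′ to 3′ on the strand of the gene, with CG dinucleotides in capitals, for the starts of Glrb, Glra3 and the first start of Slc6a9, which were the most accessible, and for Gabrr2 and Gabrr3, which have few CG. They lie at chr3:80913661-80913910 (minus strand) for Glrb, chr8:55940168-55940417 (plus) for Glra3, chr4:117835008-117835257 (plus) for Slc6a9, chr4:33062862-33063111 (plus) for Gabrr2 and chr16:59407132-59407381 (plus) for Gabrr3.
Glrb: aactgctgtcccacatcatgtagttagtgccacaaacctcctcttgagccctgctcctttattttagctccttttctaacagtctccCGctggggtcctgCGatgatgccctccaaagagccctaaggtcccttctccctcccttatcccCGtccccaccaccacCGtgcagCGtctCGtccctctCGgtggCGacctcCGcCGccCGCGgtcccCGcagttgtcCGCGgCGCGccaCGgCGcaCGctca
Glra3: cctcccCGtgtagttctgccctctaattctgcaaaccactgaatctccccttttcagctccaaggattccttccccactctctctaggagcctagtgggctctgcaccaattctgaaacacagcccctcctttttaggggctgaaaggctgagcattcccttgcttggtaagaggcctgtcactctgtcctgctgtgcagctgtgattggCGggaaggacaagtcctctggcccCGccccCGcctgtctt
Slc6a9: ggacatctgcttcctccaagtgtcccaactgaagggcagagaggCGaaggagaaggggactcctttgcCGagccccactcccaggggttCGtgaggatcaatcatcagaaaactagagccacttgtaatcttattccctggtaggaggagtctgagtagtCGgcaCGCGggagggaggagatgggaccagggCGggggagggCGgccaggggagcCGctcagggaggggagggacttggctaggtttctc
Gabrr2: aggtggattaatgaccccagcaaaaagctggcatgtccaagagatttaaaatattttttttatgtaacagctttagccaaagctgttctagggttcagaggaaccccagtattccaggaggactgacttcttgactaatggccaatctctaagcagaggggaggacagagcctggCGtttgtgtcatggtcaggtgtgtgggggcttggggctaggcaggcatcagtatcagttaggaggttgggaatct
Gabrr3: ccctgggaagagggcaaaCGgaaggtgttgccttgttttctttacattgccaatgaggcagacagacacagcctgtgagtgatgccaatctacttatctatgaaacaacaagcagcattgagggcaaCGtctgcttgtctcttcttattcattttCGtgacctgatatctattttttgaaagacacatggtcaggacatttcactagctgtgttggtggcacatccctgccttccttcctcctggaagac
The Glrb stretch held 20 CG, mostly in the part nearest the start, against 9 for Slc6a9, 4 for Glra3, 3 for Gabrr3 and 1 for Gabrr2. Of all 32851 annotated starts 17.9% held at least 20 CG, and Glrb was the single member start among them.

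The libraries were alike in depth. Once ambiguous reads and PCR-like repeats were taken out, the knockout library held 7646373 insertions and the wild-type library 7635799. Of the autosomal insertions 18.8% of the knockout and 19.6% of the wild-type library fell into 36840 open regions called on both libraries together. The rod marker genes Gnat1, Nrl, Pde6b, Sag and Crx ranked at percentile 95.7 or higher among all genes by insertions per kb over both libraries, and each had an open region. The 4 genes of other organs ranked at 12.5 to 52.8 and 3 of them had an open region, and the 4 genes of the retinal pigment epithelium ranked at 11.5 to 82.4 and 2 had one. Of these, Rpe65 had 45 knockout and 28 wild-type insertions over its span (log2 ratio 0.67, -0.03 to 1.42) and Tyr 84 and 69 (0.28). Best1 had 255 and 283 (-0.15) and Mitf 839 and 846 (-0.01), so 2 of the 4 lay below 0. The part of these genes in the results was not tested. The span of Gabra3 held 125 knockout and 135 wild-type insertions and no open region, which does not check the genotype label.

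Levels are given for gene spans, meaning the gene body with 5 kb either side, as a density, the insertions per kb for each 1000000 insertions of the library. The mean density over the genome, gene-poor stretches included, was 0.367 in each library. The median of protein-coding gene spans was higher, at 0.643 (knockout) and 0.637 (wild type). The members spread widely around the genome mean, from Slc6a9 at 2.46 (knockout) and 2.61 (wild type) down to Glra2 at 0.0889 and 0.0884. Slc6a9 ranked at percentile 96.9 of all protein-coding genes and Glra2 at percentile 6.63. Gabrr2 ranked at 63.5, Gabrr1 at 56.8 and Gabrr3 at 38.4, so Gabrr3 lay below the median gene. In both libraries the transporter came first, the rho genes next and the glycine receptor genes last, and of the order within them Glrb and Glra1 alone changed places.

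**Figure D1:**
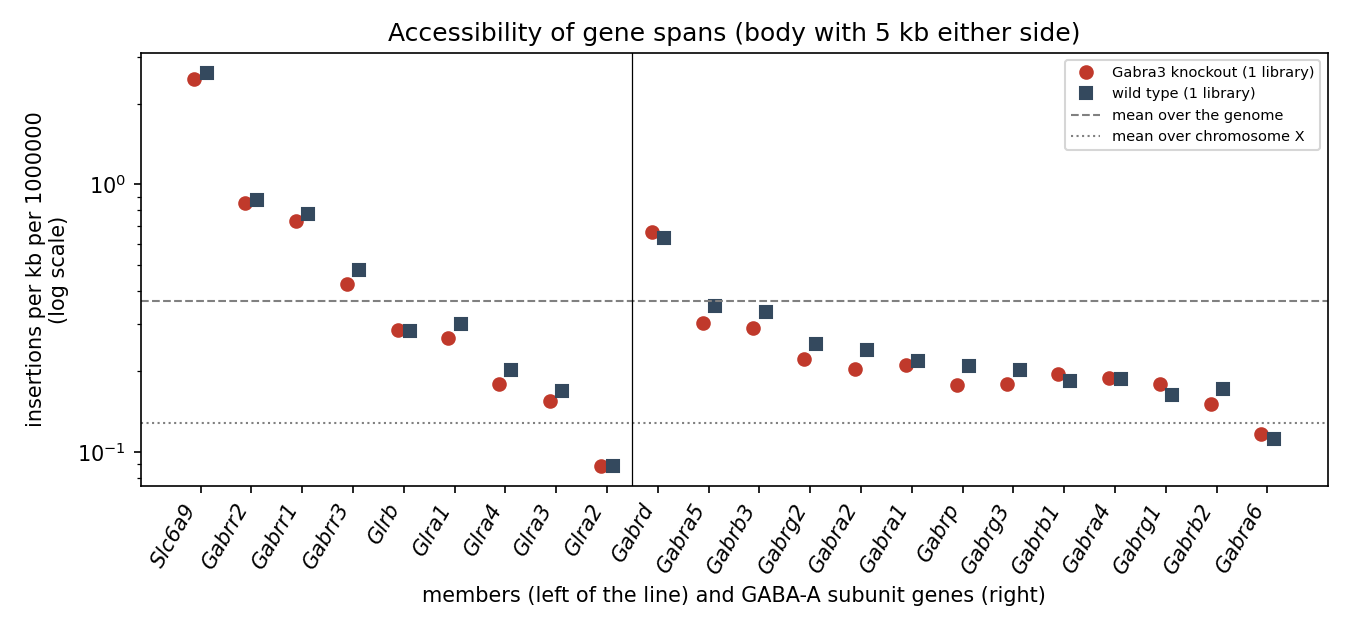
Density in insertions per kb for each 1000000 insertions (log scale) over each gene span in the Gabra3 knockout library (circles) and the wild-type library (squares), for the 9 members and for 13 GABA-A subunit genes, with the genome and chromosome X means as lines. Slc6a9 and the 3 rho genes lie above the genome mean of 0.367, and the 5 glycine receptor genes lie below it. The median of protein-coding gene spans, not drawn, was 0.643 (knockout) and 0.637 (wild type), above Gabrr3.

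The rho genes were more accessible over their spans than the glycine receptor genes. Gabrr2 had 313 knockout and 320 wild-type insertions, a density of 0.850 and 0.870. Gabrr1, its neighbour on chromosome 4, had 229 and 242 insertions, a density of 0.730 and 0.772. These neighbours in the order had overlapping exact Poisson intervals in both libraries. Gabrr3, on chromosome 16, had 209 and 235 insertions, a density of 0.425 and 0.478, and its interval lay apart from that of Gabrr1 in both libraries.

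Among glycine receptor genes Glrb, which encodes the beta subunit, and Glra1, which encodes the alpha 1 subunit of adult glycine receptors, came first. Glrb had 175 knockout and 173 wild-type insertions, a density of 0.286 and 0.283. Glra1 had 212 and 239 insertions, a density of 0.267 and 0.301, and its intervals overlapped those of Glrb. Glra4 had 49 and 55 insertions over a short span, a density of 0.180 and 0.202. Glra3 had 237 and 257 insertions over a span of 200 kb, a density of 0.155 and 0.169. The intervals of Glra4 overlapped those of Glra3 in both libraries and that of Glra1 in the knockout library but not in the wild-type library. Glra2 had 142 and 141 insertions, and its intervals lay below those of Glra3 in both libraries. Glra2 and Glra4 are X-linked, and chromosome X as a whole had a density of 0.127 (knockout) and 0.129 (wild type), so Glra2 lay below and Glra4 above the mean of their chromosome. The sex of the animals, on which the number of X copies depends, is not given, and its part in these levels was not tested.

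By median density, the rho genes stood high against a list of GABA-A subunit genes and the glycine receptor genes stood alongside. The 13 GABA-A genes had a median density of 0.196 (knockout) and 0.209 (wild type), and 11 of them had an open region. All 13 are autosomal, with X-linked Gabra3 left out, whereas the glycine receptor genes include X-linked Glra2 and Glra4. In both libraries the autosomal Glrb and Glra1 lay above the GABA-A median, and the autosomal Glra3 lay below it. The rho genes had medians of 0.730 and 0.772, and the glycine receptor genes 0.180 and 0.202. Gabrd, which encodes the delta subunit, was the one GABA-A gene above the genome mean, at 0.662 and 0.629. These are lists of few genes and their levels were not tested against each other.

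For Gabrr2 and Glra2, the highest and the lowest of the receptor genes, the level of the span was close to that of its surroundings. The 100 kb below and above the Gabrr2 span had densities of 0.976 and 0.876 in the knockout library, and 0.957 and 0.922 in the wild-type library. For Glra2 the same flanks had 0.0981 and 0.0759 in the knockout library, and 0.0825 and 0.0773 in the wild-type library. Outside its open regions the Gabrr2 span still had 0.815 and 0.786, above the genome mean, and the Gabrr1 span had 0.671 and 0.711. Glra1 lay between unlike flanks, with 1.09 and 1.15 below it and 0.177 and 0.162 above it. The Slc6a9 span outside open regions, at 1.74 and 1.90, exceeded both of its flanks, of which the higher had 1.08 and 1.04. Of the Slc6a9 insertions 34.3% (knockout) and 32.6% (wild type) lay in open regions, against 5.11% and 10.6% for Gabrr2.

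Open regions are places in the summed libraries where 200 bp windows held more insertions than the genome or the surrounding 10000 bp would give at a Poisson p under 1e-05. The members' spans held 18 of the 36840 regions. Slc6a9 had 8, Gabrr3 had 3, Gabrr1 and Glra1 had 2 each, Gabrr2, Glra3 and Glrb had 1 each, and Glra2 and Glra4 had none. Of the 18 regions 12 lay inside a member's body away from its ends, 4 outside the body and 2 over a gene end. At least 1 region was found for 7 of the 9 members and for 68.7% of all protein-coding genes.

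The members with a region at their start were Glrb and Glra3. The Glrb region lay at chromosome 3, 80913251 to 80913900, over the start, and held 32 knockout and 26 wild-type insertions. The Glra3 region lay at chromosome 8, 55940251 to 55940800, again over the start, with 16 and 18 insertions. Within 500 bp of the gene end that is the start, Glrb had 34 and 31 insertions and Glra3 had 20 and 22. The opposite ends of both genes were nearly empty, with 0 and 2 insertions for Glrb and 1 and 0 for Glra3. The 1 kb bin of the span with most insertions was the same in both libraries for each gene. For Glra3 it was the first bin of the gene body, with 13 and 14 insertions, and the bin before it held 9 and 9. Bins were laid from 5 kb below the lower gene end, which places a bin edge on the Glra3 start.

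**Figure D2:**
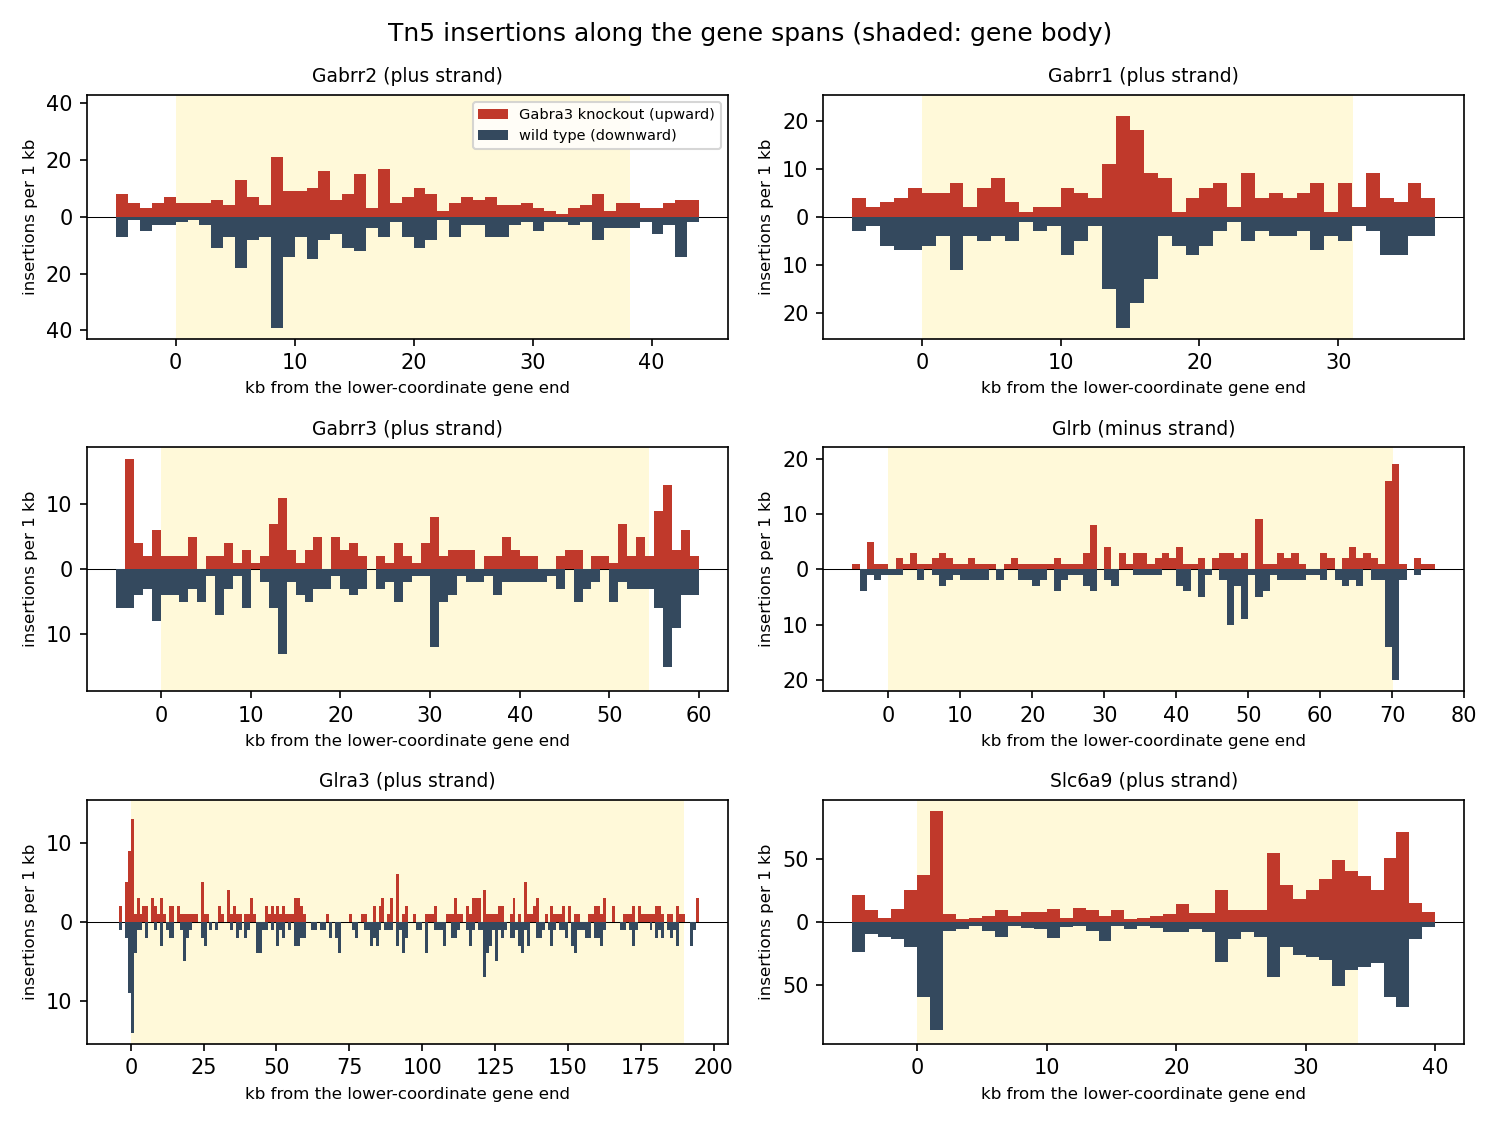
Insertions in 1 kb bins along 6 gene spans, with the Gabra3 knockout library drawn upward and the wild-type library downward, against distance from the lower-coordinate gene end in kb; shading marks the gene body. Glrb and Glra3 peak at the start, Gabrr1 and Gabrr2 inside the body, and Slc6a9 at the start and over its far end.

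Gabrr1 and Gabrr2 were most accessible inside the gene, away from the start. At Gabrr1 the start had 7 knockout and 7 wild-type insertions within 500 bp and no open region. A broad stretch from 13 to 17 kb into the gene (chromosome 4, 33145556 to 33149555) held 59 and 69 insertions, a density of 1.93 and 2.26, and contained both open regions of the gene. This stretch was picked from the profile after its values were seen. At Gabrr2 the annotated start lies 5400 bp inside the lower end of the gene, and the 500 bp either side of it held 12 and 18 insertions. The open region of Gabrr2 (chromosome 4, 33066201 to 33066700) lay 3.34 kb from that start and held 16 and 34 insertions. At Gabrr3 the start had 6 and 6 insertions, and its regions lay 3.46 kb outside the gene on the side of the start (14 and 5 insertions), and at 13.7 kb (6 and 9) and 30.5 kb (5 and 8) into the gene.

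Slc6a9 was most accessible near its first start and over its far end. Its first start had 34 knockout and 47 wild-type insertions within 500 bp, the second 10 and 12, and the third 14 and 9. The strongest region lay 1.27 kb inside the gene from the first start (chromosome 4, 117836151 to 117836900), with 91 and 81 insertions, at percentile 85.1 of all open regions by size. A smaller region just before it, at 117835651 to 117835850, held 7 and 20. Over the far end of the gene, and running past it, a stretch of 12 kb held 442 and 446 insertions. In the middle of the gene 20 kb held 131 and 131, a density of 0.857 (knockout) and 0.858 (wild type). Both stretches were picked after their values were seen. The last 2 regions, with 36 and 41 and with 60 and 59 insertions, lie in the 12 kb stretch, outside the gene body. They are within 1 kb of the neighbouring genes Ccdc24 and B4galt2 and cannot be assigned to Slc6a9. Without them the Slc6a9 span held 734 knockout and 778 wild-type insertions.

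The remaining glycine receptor genes had little open chromatin. Glra1 had regions 4.79 kb inside its lower end (4 knockout and 14 wild-type insertions) and 0.948 kb inside its higher end (4 and 8). Within 500 bp of its ends it had 2 and 2 insertions at the lower and 5 and 7 at the higher. The annotated starts of Glra2, which encodes the alpha 2 subunit known from immature neurons, and of Glra4 had 2 and 2 insertions each. With so few insertions a difference at these starts was not detectable.

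CG content and accessibility at starts went together over all 32851 annotated starts, and the 10 member starts ranked from percentile 20 to 94.2 within their CG class. The annotated starts were not limited to protein-coding genes and include many entries with Gm or LOC symbols, so the ranks are against these too. Starts with at least 20 CG in the 250 bases before them had a median of 93 knockout and 93 wild-type insertions within 500 bp, those with 10 to 19 CG had 55 and 57, and those with fewer had 3 and 3. Glrb, with 34 and 31, stood at percentile 21 of the starts in its class. Glra3, with 4 CG, stood at percentile 91 of starts with under 10 CG, Gabrr2 at 88.8, Gabrr1 at 75.7, Gabrr3 at 71.3, and Glra2 and Glra4 at 35.3. The first Slc6a9 start stood at 94.2 and the third at 86 of the same class, and the second at 20 of starts with 10 to 19 CG. The third had 8 CG and 23 insertions summed and the second 10 CG and 22, so their unlike ranks reflect the class limit. The first, with 9 CG, lies at that limit too. The letters CCGCCC, the core of the GC box bound by Sp factors, occurred on either strand in 5 of the 10 member stretches and in 32.7% of all 32851. TAATCC, the core bound by the retinal factors CRX and OTX2, occurred in 1, that of Gabrr2 near its far end, and in 6.25% of all. TATAAA occurred in 1, that of Glra2, and in 12.4% of all. These matches describe letters and are not binding sites.

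**Figure D3:**
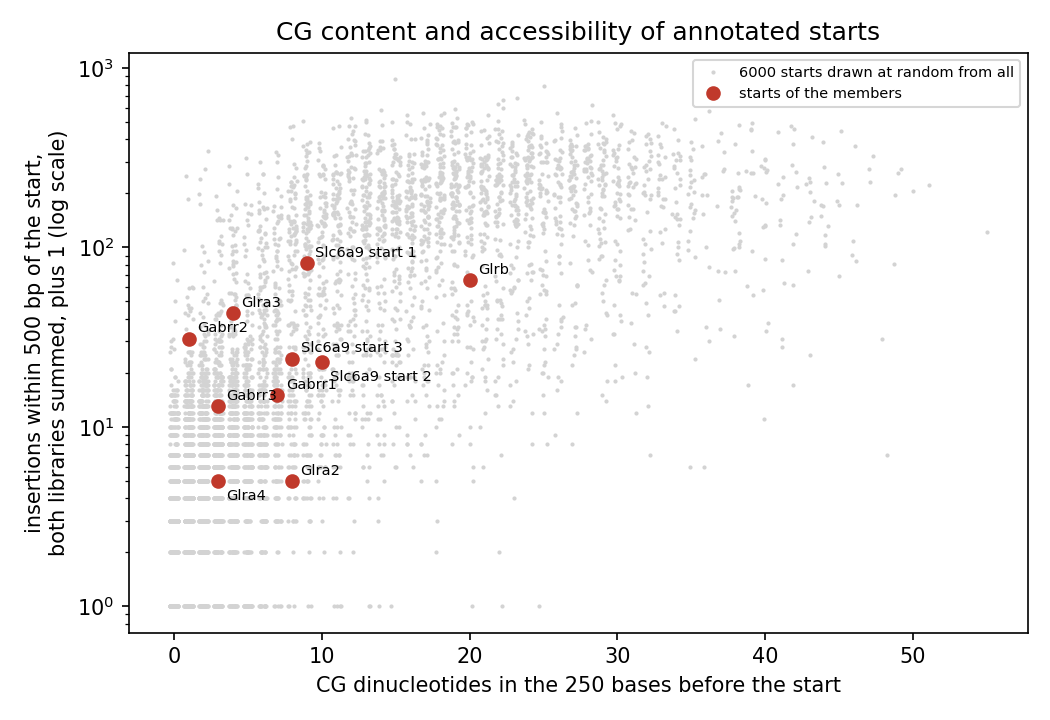
Insertions within 500 bp of annotated starts, summed over both libraries and plus 1 (log scale), against CG dinucleotides in the 250 bases before the start, for the 10 member starts and for starts drawn at random. Glrb is the member start furthest right, with 20 CG, and Glra2 and Glra4 lie lowest, with 4 insertions each.

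Between genotypes the spans of the members differed by less than counting error. Each ratio is the log2 of knockout over wild-type counts, with 0.5 added to both, and spans were scaled to all autosomal insertions. They ran from -0.17 for Glra1 (-0.45 to 0.10) to 0.01 for Glrb (-0.30 to 0.33), and the interval of each of the 9 included 0. Of all 20326 gene spans measured 93.5% had such an interval, so this does not set the members apart. Among the members the narrowest interval was that of Slc6a9, at -0.08 (-0.22 to 0.05). Gabrr1 had -0.08 (-0.35 to 0.18), Gabrr2 -0.03 (-0.26 to 0.19) and Gabrr3 -0.17 (-0.45 to 0.10). Glra2 had 0.01 (-0.34 to 0.35), Glra3 -0.12 (-0.38 to 0.14) and Glra4 -0.17 (-0.75 to 0.41). For 8 of the 9 members the interval lay within 1.5-fold either way, and Glra4 was the exception. Over all genes measured this held for 69.8%.

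No member span was apart by 1.5-fold. Over all 20326 gene spans with at least 20 insertions summed, 3.5% were past 1.5-fold in either direction, so a count of 0 among 9 does not set the members apart. The median log2 ratio of the members was -0.08 and that of all genes measured -0.0024. Summed by role, the rho genes had 751 knockout and 797 wild-type insertions (log2 -0.09, -0.23 to 0.06), the glycine receptor genes 815 and 865 (-0.09, -0.23 to 0.05) and Slc6a9 830 and 878 (-0.08, -0.22 to 0.05). The 3 roles lay on the same side of 0, each by less than its interval.

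**Figure D4:**
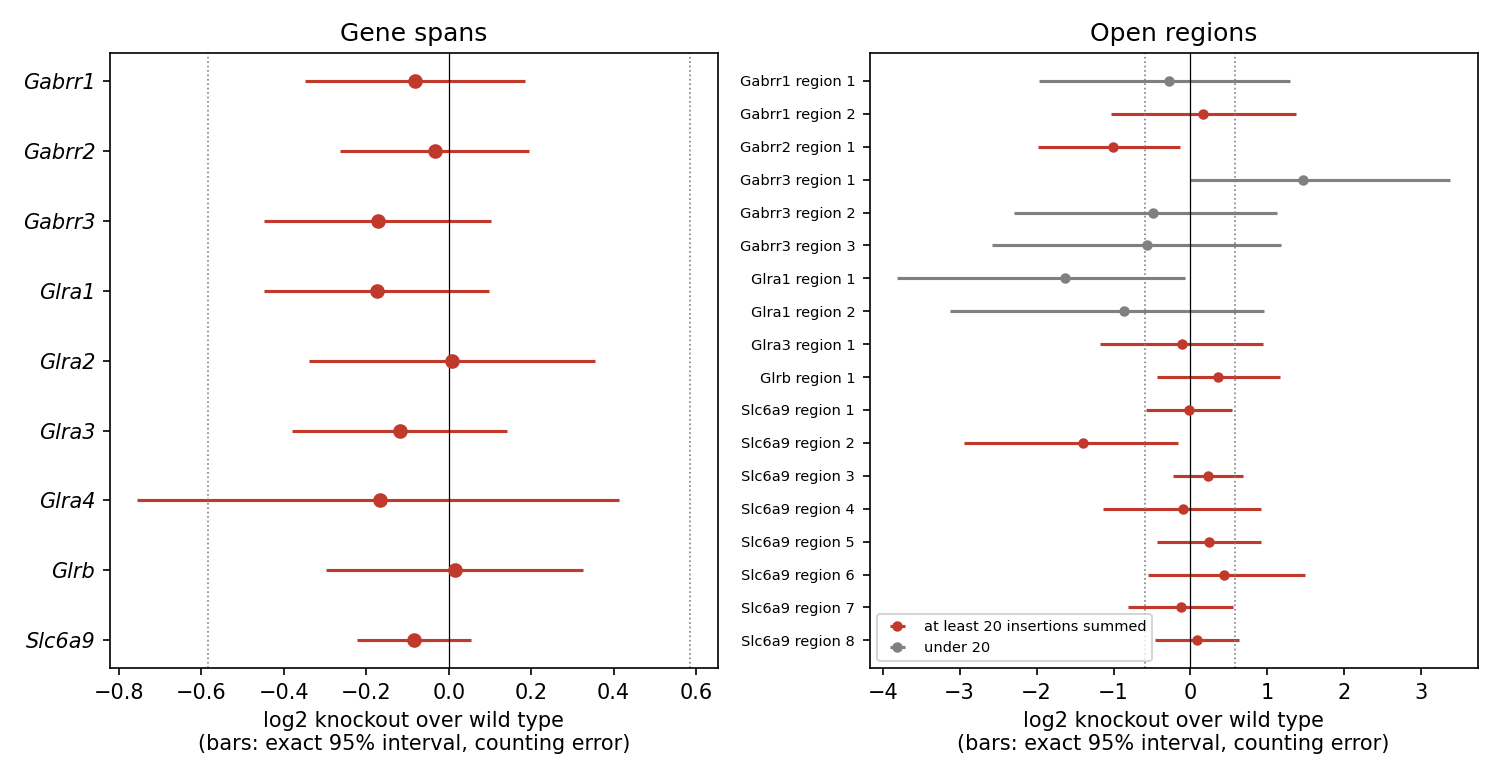
Log2 ratios of knockout over wild type with exact 95% intervals for the 9 gene spans (left) and the 18 open regions (right); dotted lines mark 1.5-fold, and grey points are regions with under 20 insertions summed. All 9 span intervals cross 0, as do 93.5% of those of all gene spans measured. Among the regions with at least 20 insertions the intervals of Gabrr2 region 1 and Slc6a9 region 2 do not cross 0.

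Gene ends were scaled to autosomal insertions in open regions, and 3 members had at least 20 insertions summed at their more accessible end. Glrb had a log2 ratio of 0.19 (-0.55 to 0.94), which was -0.0037 with all reads kept, Glra3 -0.08 (-1.03 to 0.86) and the first start of Slc6a9 -0.40 (-1.09 to 0.26). None was past 1.5-fold, against 7.38% of the 11889 gene ends measured. The opposite end of Slc6a9 had 41 knockout and 30 wild-type insertions, so its ends leaned to different sides. The annotated start of Gabrr2, inside the gene, had -0.51 (-1.71 to 0.61).

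Of the 18 open regions 12 held at least 20 insertions, and 2 of these were lower in the knockout library by 1.5-fold or more. Over all 24258 open regions of that size 13.3% were past 1.5-fold in either direction, and 7.86% were lower. The region inside Gabrr2 had 16 knockout and 34 wild-type insertions, a log2 ratio of -1.01 (-1.98 to -0.13). Both strands were lower there, with 5 and 11 knockout insertions on the plus and minus strands against 14 and 20 wild-type insertions. The 500 bp either side of the region, without the region itself, held 10 and 12 insertions (-0.19, -1.57 to 1.13), and the 1000 bp either side 16 and 22 (-0.39, -1.43 to 0.59). The small Slc6a9 region had 7 and 20 insertions (-1.39, -2.94 to -0.16). Taken with the strong region beside it and the gap between them, that place held 110 and 114 insertions (0.01, -0.38 to 0.40). Intervals that left out 0 occurred for 3.11% of all regions of this size and for these 2 of the 12.

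The other 10 regions of this size had intervals that included 0. The strong Slc6a9 region had 0.23 (-0.22 to 0.68), which turned to -0.07 when it was widened by 500 bp either side, and the Glrb region 0.35 (-0.43 to 1.16). Of the 6 regions under 20 insertions, the one outside Gabrr3 was higher in the knockout library (14 and 5; 1.46, -0.01 to 3.37), and the one 4.79 kb inside Glra1 was lower (4 and 14; -1.63, -3.81 to -0.08). Widened by 500 bp either side the Glra1 region had 8 and 18 insertions, and its interval then included 0 (-1.06, -2.52 to 0.16). Called in each library alone, 8 of the 18 regions were found in both, 1 in the knockout library alone, 7 in the wild-type library alone and 2 in neither. Over all 36840 regions 53.8% were found in both, 9.42% in the knockout library alone and 16.4% in the wild-type library alone. The lower share of knockout insertions in open regions goes with these calls, and its part in them was not tested.

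The partner genes of these receptors had span ratios from -0.27 to 0.18. The list of 21 held synthesis, uptake and vesicle loading genes for GABA and glycine, glycine cleavage genes, chloride transporters and scaffold proteins. All 21 were measured, 0 were past 1.5-fold against 3.5% of all gene spans, and the median log2 ratio was 0.01 against -0.0024 over all genes. A count of 0 among 21 does not set the list apart. Sqstm1, which encodes the adaptor p62, was lowest, with 144 knockout and 173 wild-type insertions (-0.27, -0.60 to 0.06). Gad1, a GABA-synthesising enzyme gene, was highest, with 215 and 189 (0.18, -0.11 to 0.47). Gcsh, a glycine cleavage gene, was the most accessible per kb, with densities of 2.95 and 2.86, next to Slc6a9 at 2.46 and 2.61. The 5 bipolar markers had span ratios from -0.19 to 0.22 and the 5 amacrine markers, which include Slc6a9, from -0.25 to 0.18. Of the bipolar markers, Prkca had 2256 knockout and 2465 wild-type insertions (-0.13, -0.21 to -0.05). The more accessible gene end of Otx2 had 17 and 40 insertions (-1.15, -2.09 to -0.32), and it was the one past 1.5-fold of the 4 bipolar gene ends measured, against 7.38% of all gene ends. Their part in the members' ratios was not tested.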

How the data were processed

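The deposited files list 1 aligned 75 bp read per line, with a mapping quality score of 0 to 37 that the authors left as the aligner gave it. The submitters' processing notes name Trimmomatic 0.33, BWA and bedtools 2.23.0 with GRCm38 (mm10). What each tool did, and any duplicate filter, is not given in the sources used here.

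Reads with a score of at least 10 were reduced to 5-prime ends, moved to the Tn5 insertion (4 bp on the plus, -5 bp on the minus strand), and counted once per position and strand (Python 3.11.15, numpy 2.4.6, scipy 1.17.1). Depth was 9038110 knockout and 9170838 wild-type reads, of which 7646373 and 7635799 insertions remained. PCR repeats carry no molecular identifiers, so intervals cover counting error only. Windows passing the Poisson threshold, taken every 50 bp, were merged within 150 bp into open regions. Ratios carry Clopper-Pearson intervals, and levels exact Poisson intervals. Interval coverage was tried on simulated binomial splits, which is the model the intervals assume. The simulation held no variation between libraries, so it cannot show whether the intervals cover that. Region calling was tried on planted peaks of equal size in an even background, and these were stronger than the weaker member regions. All 9 members are named. The list of partner genes gives its extremes and its most accessible member. A further rod marker is not reported here. The members and lists were chosen with earlier results of these data known. Alternatives changed the scaling, repeats, score, flank, window, shift, fold and minimum count. Likeness of patterns to other genes was not computed, since 2 libraries give 1 difference per gene.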

Additional observations from a re-analysis of the deposited data

How the results depend on the processing

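The role sums kept intervals that held the alternative value under each setting tried. Summed spans of the rho genes ranged from -0.10 to -0.03, of the glycine receptor genes from -0.11 to -0.03 and of Slc6a9 from -0.09 to -0.02. Summed ends ranged from 0.11 to 0.25 for the rho genes, from -0.11 to 0.03 for the glycine receptor genes and from -0.46 to -0.34 for Slc6a9. The rho ends summed to only 16 knockout and 14 wild-type insertions (0.25, -0.88 to 1.40), so their narrow range over settings shows no direction. For Gabrr2 they count its higher end (3 and 1), not its annotated start (12 and 18). The settings were the other scaling, all reads kept, a mapping quality of at least 30, and for spans the gene body alone; leaving out the X-linked Glra2 and Glra4 was chosen after seeing the data. The direction of the Glrb, Glra2 and Gabrr2 spans, each within 0.10 of 0 on the log2 scale, turned with the setting. So did that of the Glrb end (-0.0037 with all reads kept) and, when widened, of 6 open regions (Gabrr1 regions 1 and 2, Gabrr3 region 2, and Slc6a9 regions 1, 3 and 6), each with an interval that included 0. Over all genes, the count of spans past the fold was 712, and it was 134 at 2-fold and 49 with at least 100 insertions. The count of ends was 877, and it was 184 at 2-fold and 56 with at least 100 insertions. Among the members the counts of spans and of ends were 0 under each of these. Widening open regions was also chosen after seeing the data. By 1000 bp it brought the small Slc6a9 region to -0.05, outside its interval, since the wider window takes in most of the strong region. Widened by 500 bp, that Slc6a9 region had -0.40 (-0.96 to 0.14), an interval that included 0. The Gabrr2 region ranged from -1.14 with all reads kept to -0.74 in a wider window, which contains the region's own insertions. No paired analysis was possible because each genotype has 1 library. Depth limits the gene ends of Gabrr1, Gabrr2, Gabrr3, Glra1, Glra2 and Glra4, where insertions were under the minimum for a ratio.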

Other observations

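The 36.7 kb between Gabrr2 and Gabrr1 (chromosome 4, 33095866 to 33132555) held 164 knockout and 203 wild-type insertions, a log2 ratio of -0.31 (-0.62 to -0.01). Its density, in insertions per kb for each 1000000 insertions, was 0.585 (knockout) and 0.725 (wild type), above the genome mean of 0.367 in both. This stretch and the next were picked after their values were seen. For the 36.7 kb the upper limit of the interval was -0.0062, close to 0. Scaling to autosomal insertions in open regions instead raises every span ratio and its limits by the same step. The Gabrr1 span went from -0.082 to -0.020, and a step of that size carries the upper limit of the 36.7 kb above 0. The ratio of the 36.7 kb was not set against other stretches of that length. Just beyond the end of Gabrr3, the 3 kb at chromosome 16, 59462382 to 59465381, held 25 and 30 insertions and no called open region, and in the wild-type library its middle 1 kb was the most accessible of the whole Gabrr3 span, with 15 insertions.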
